A study of Homo sapiens with 22 samples.

Results

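A set of 838 transcript clusters, each a group of probes that reads one transcribed region, had lower signal with the IL-6 knockdown virus than with the NT control virus in both JHOC9 and JHOC5 cells. The members were chosen from 65526 measured clusters by their log2 signal. The mean of the IL-6 knockdown (IL-6 KD) arrays had to lie at least 0.2 below the mean of the NT arrays in each line, and the NT mean had to be at least 5 in each line. A floor of 5 on the log2 scale was met by 29506 clusters, so the set held 2.84% of the clusters that could enter it. A log2 fall of 0.2 corresponds to 12.9% less signal. The IL-6 KD and NT arrays chose the members, so the falls are a description. Counts of members that limma calls in these contrasts are given further on only beside the share over all clusters, and nothing is read from them.

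JHOC9 and JHOC5, established lines grown from ovarian clear cell carcinomas, were each given lentivirus in 35 mm dishes. The 6 groups were JHOC9 with IL-6 KD virus #58 (3 arrays), JHOC9 with SPINK1 KD virus #9 (3 arrays), JHOC9 with NT virus (5 arrays), and the same groups with the same numbers of arrays in JHOC5. JHOC9 was grown in 20% and JHOC5 in 10% fetal bovine serum, so line and serum cannot be told apart, and each target gene was hit by 1 virus only. All groups, NT included, carry a lentivirus. NT arrays carry a letter and an Experiment name in their titles (A to E), and knockdown arrays a letter alone. No label says that the arrays of a group are separate cultures. The p-values below therefore cover array-to-array spread that may be partly technical.

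IL-6 is a secreted cytokine that binds a receptor complex containing gp130 and acts through JAK kinases and the transcription factor STAT3. Ovarian clear cell carcinomas are known for making much of it. SPINK1 is a secreted inhibitor of trypsin that many tumours also release. Knockdown viruses of this kind make a short hairpin RNA, which is cut into a small RNA that guides the degradation of matching transcripts. Such small RNAs can also lower transcripts that match them only in part. Cluster IDs come without gene names, so members are given by ID and without a role, and the levels of IL6 and SPINK1 and of lineage markers were not analysed here. For the same reason no sequence of a member is printed. The number of arrays limits the precision throughout.

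The falls were small for most members. In JHOC9 the log2 change of the members ran from -1.31 to -0.20 with a median of -0.29. In JHOC5 it ran from -1.34 to -0.20 with a median of -0.35. Over the 29506 clusters above the floor, the median change was 0.0189 in JHOC9 and 0.0231 in JHOC5. A fall of at least 0.5 in both lines was found for 49 members, and none fell by 1 or more in both. A fall of at least 1, or 2-fold, occurred for 3 members in JHOC9 and for 18 in JHOC5. The fall was larger in JHOC5 for 565 members and larger in JHOC9 for 273.

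The quadrants of the plane of both changes held unequal numbers of clusters. Among the clusters above the floor, 2250 fell by at least 0.2 in JHOC9 and 2295 in JHOC5, and the 838 members are those that did both. A rise of at least 0.2 in both lines was found for 208 clusters. Another 180 clusters were higher in JHOC9 and lower in JHOC5 by that amount, and 56 were lower in JHOC9 and higher in JHOC5. The changes of the lines share no array.

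**Figure D1:**
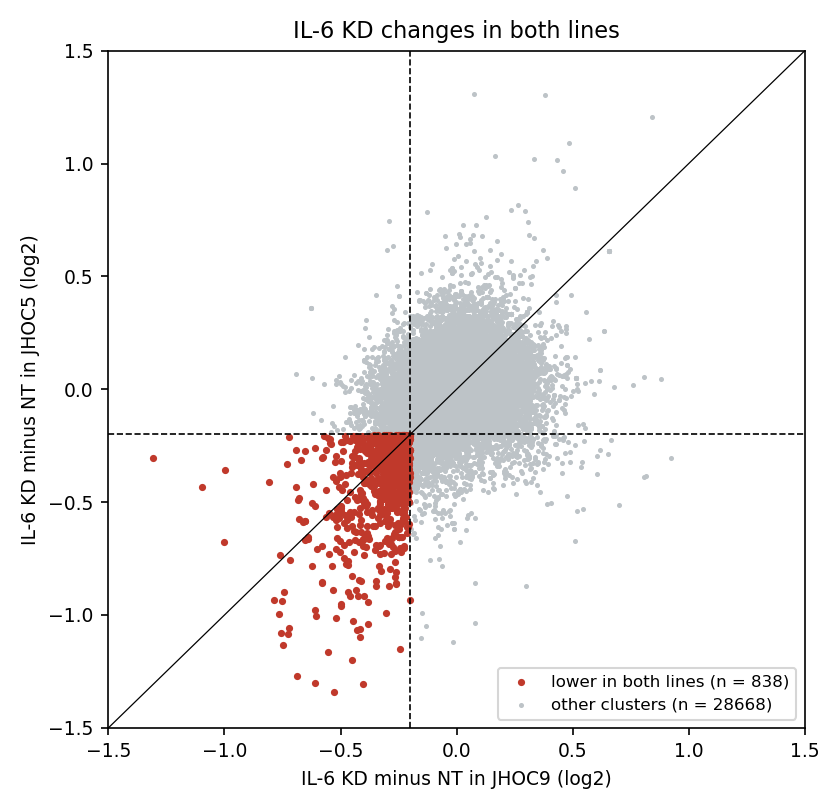
Change with IL-6 KD against NT in JHOC9 (horizontal axis, log2) and in JHOC5 (vertical axis, log2) for the 29506 clusters with NT means of at least 5 in both lines. Red points are the 838 members, grey points the 28668 other clusters, dashed lines mark -0.2 and the diagonal marks equal changes; 565 members lie below the diagonal.

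The edge of the set was densely filled. The smaller of a member's falls lay between 0.2 and 0.25 for 360 members, while 629 clusters just outside had a smaller fall between 0.15 and 0.2. The smaller fall of the 3 members nearest the edge was 0.20 to 2 decimals, and so was that of the 3 nearest clusters outside, whose changes were -0.1998 in JHOC9 with -0.27 in JHOC5, -0.21 with -0.1998, and -0.23 with -0.1996. Membership near the cutoff therefore separates clusters with nearly equal values. With a required fall of 0.3 in both lines, 277 clusters remained.

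The IL-6 KD arrays did not share the falls equally. In JHOC9 the median member lay 0.37, 0.21 and 0.35 below the NT mean on IL-6 KD replicates b, d and e. In JHOC5 it lay 0.51, 0.32 and 0.27 below on replicates a, b and c. The single lowest of the 3 JHOC5 IL-6 KD arrays was replicate a for 661 of the 838 members. In JHOC9 it was replicate b for 385 members, replicate e for 381 and replicate d for 72. A fall of at least 0.2 on all 6 IL-6 KD arrays was found for 184 members. Conversely, 104 members had at least 1 JHOC9 IL-6 KD array at or above the NT mean, and 47 members had such an array in JHOC5. Applied again without JHOC5 IL-6 KD replicate a, the rule gave 613 clusters, of which 598 were members. Without JHOC9 IL-6 KD replicate b it gave 685, of which 625 were members. Without both arrays, a choice made after seeing the data, it gave 525, with 464 of the members among them.

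The NT arrays varied as well. In JHOC9 the median member lay 0.0917 below the NT mean on NT replicate d, where 84.5% of the members were below that mean, and 0.0320 to 0.0453 above it on replicates a, b and c. In JHOC5 NT replicates a and b lay 0.0723 and 0.0464 below, and replicates c and d lay 0.0467 and 0.0585 above. All NT medians were nearer to 0 than the median of any IL-6 KD array. Over all clusters the median log2 signal of an array was 4.90 to 4.95 on the IL-6 KD arrays and 4.80 to 4.94 on the NT arrays in JHOC9. It was 4.79 to 4.90 on the IL-6 KD arrays and 4.78 to 4.84 on the NT arrays in JHOC5. With each array centred on its median the rule gave 1284 clusters, which included all 838 members, and after cyclic loess normalization it gave 1002, which included 780. The medians over all clusters were not lower on the IL-6 KD arrays as a group than on the NT arrays. These medians lie below 5, the floor of the rule. They therefore do not show how arrays differ among clusters as bright as the members, which was not tested.

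**Figure D2:**
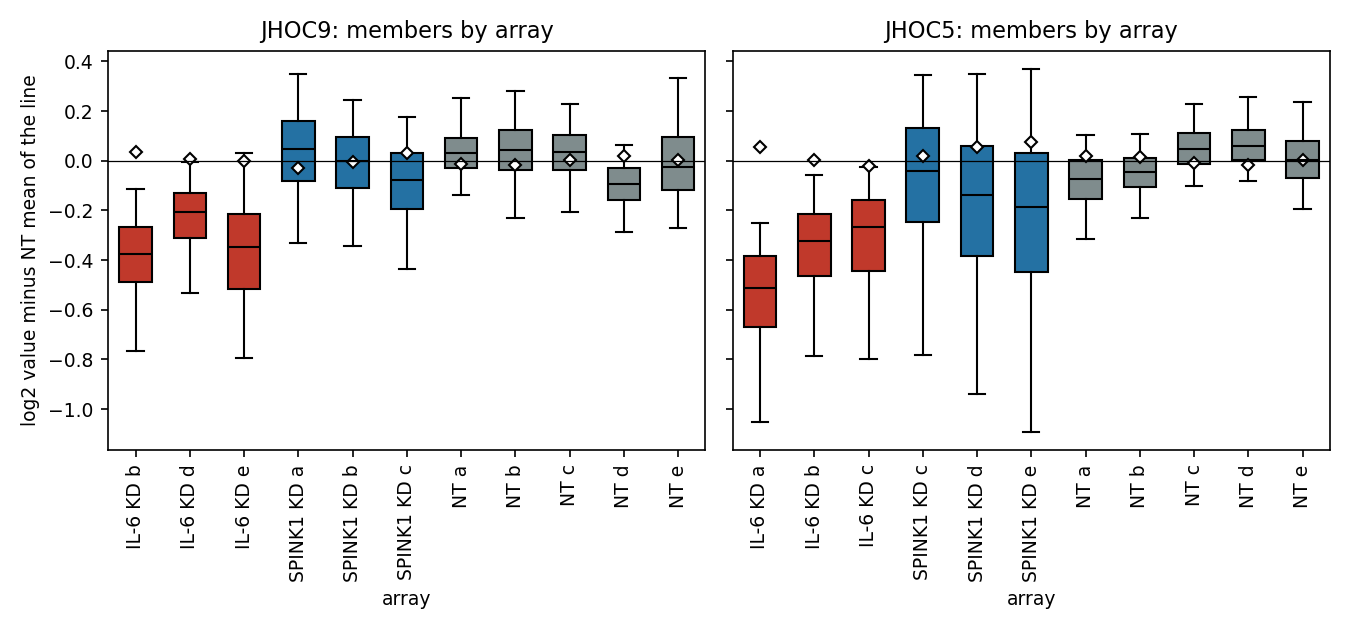
Log2 value of the 838 members minus the NT mean of the line, for every array of JHOC9 (left) and JHOC5 (right), with IL-6 KD arrays in red, SPINK1 KD arrays in blue and NT arrays in grey. Boxes span the quartiles with the median as a line, whiskers reach the 5th and 95th percentiles and white diamonds are the medians over all 29506 clusters above the floor; JHOC5 IL-6 KD replicate a has the lowest member median, -0.51.

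In JHOC9, limma called 102 of the 838 members lower with IL-6 KD than with NT at an adjusted p under 0.05. Over all 65526 clusters 0.201% were called lower in that comparison, and 0.417% of those above the floor. In JHOC5 it called 329 members lower, where 0.954% of all clusters and 1.79% of those above the floor were called. Calls in both lines were made for 87 members, and every cluster called lower in both lines in the whole table was a member. The rule used these contrasts, so a high share was fixed by it. The remaining members, most of the set, did not pass the test in both lines. All IL-6 KD arrays lay below all NT arrays for 394 members in JHOC9 (4.86% of the clusters above the floor did so), for 555 in JHOC5 (5.64%) and for 298 in JHOC9 and JHOC5 alike (1.35%). These 298 had a median log2 change of -0.32 in JHOC9 and -0.44 in JHOC5, against -0.27 and -0.31 for the 540 members whose arrays overlapped in at least 1 line. The split uses the same arrays as these changes and so favours larger falls among the 298.

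The JHOC9 count depended on single arrays. It was 41 and 21 without IL-6 KD replicates b and e. Leaving out NT replicate a, b or c gave 51, 58 or 50. With the compared groups alone in the fit it was 2. The JHOC5 count was 181 without IL-6 KD replicate a.

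The largest fall in JHOC9 was that of TC11002228.hg.1. Its log2 signal was 7.23, 7.27 and 7.33 on the JHOC9 IL-6 KD arrays, 9.35, 8.81 and 8.11 on the SPINK1 KD arrays and 9.32, 8.86, 7.97, 7.75 and 9.03 on the NT arrays. The IL-6 KD arrays lay close together and below every NT array, while the NT arrays spread over more than 1 log2 unit. The change was -1.31 ± 0.29 (SE, 3 against 5 arrays) and was not called by limma (adjusted p of 0.0671). In JHOC5 it was 4.96, 4.86 and 4.83 on the IL-6 KD arrays, 5.11, 5.24 and 5.90 on the SPINK1 KD arrays and 5.30, 5.02, 5.16, 5.12 and 5.35 on the NT arrays. That is close to the floor, and the change was -0.31 ± 0.29 (limma adjusted p of 0.834). Here too the IL-6 KD arrays lay below all NT arrays. The SE is equal in both lines because the model takes 1 spread per cluster from all groups. The SDs on the IL-6 KD and NT arrays were 0.0710 and 0.138 in JHOC5, and 0.0511 and 0.687 in JHOC9.

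TC04002368.hg.1 had the next largest fall in JHOC9. Its log2 signal was 4.41, 4.61 and 4.37 on the JHOC9 IL-6 KD arrays, 5.31, 4.99 and 5.02 on the SPINK1 KD arrays and 5.72, 5.47, 5.32, 5.51 and 5.79 on the NT arrays. In JHOC5 it was 6.54, 6.76 and 6.94 on the IL-6 KD arrays, 6.97, 6.42 and 6.51 on the SPINK1 KD arrays and 7.0, 7.17, 7.24, 7.35 and 7.15 on the NT arrays. Both knockdowns lay below all NT arrays in both lines. The IL-6 KD change was -1.10 ± 0.13 in JHOC9 and -0.43 ± 0.13 in JHOC5 (SE, 3 against 5 arrays each). Limma did not call the JHOC5 change (adjusted p of 0.126).

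The largest falls in JHOC5 belonged to TC09001223.hg.1 and TC12002256.hg.1. TC09001223.hg.1 had 5.97, 5.86 and 5.70 on the JHOC9 IL-6 KD arrays, 6.06, 6.25 and 5.98 on the SPINK1 KD arrays and 6.32, 6.48, 6.24, 6.39 and 6.42 on the NT arrays. In JHOC5 it had 6.53, 6.52 and 6.45 on the IL-6 KD arrays, 7.38, 7.03 and 6.91 on the SPINK1 KD arrays and 7.74, 7.82, 7.73, 8.08 and 7.82 on the NT arrays. In both lines the IL-6 KD arrays were below all NT arrays. Its IL-6 KD change was -0.53 ± 0.10 in JHOC9 and -1.34 ± 0.10 in JHOC5 (SE, 3 against 5 arrays each).

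TC12002256.hg.1 is a bright cluster in JHOC9. It had 11.17, 11.17 and 11.53 on the JHOC9 IL-6 KD arrays, 11.64, 11.63 and 11.71 on the SPINK1 KD arrays and 11.52, 11.67, 11.74, 11.52 and 12.02 on the NT arrays. In JHOC5 it had 7.14, 7.50 and 7.29 on the IL-6 KD arrays, 8.42, 8.57 and 8.76 on the SPINK1 KD arrays and 8.27, 8.35, 8.69, 8.89 and 8.88 on the NT arrays. The IL-6 KD and NT arrays separated in JHOC5 and overlapped in JHOC9, where IL-6 KD replicate e reached the range of the NT arrays. The IL-6 KD change was -0.40 ± 0.14 in JHOC9, not called by limma (adjusted p of 0.305), and -1.30 ± 0.14 in JHOC5. The SPINK1 KD arrays lay within the range of the NT arrays in both lines.

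**Figure D3:**
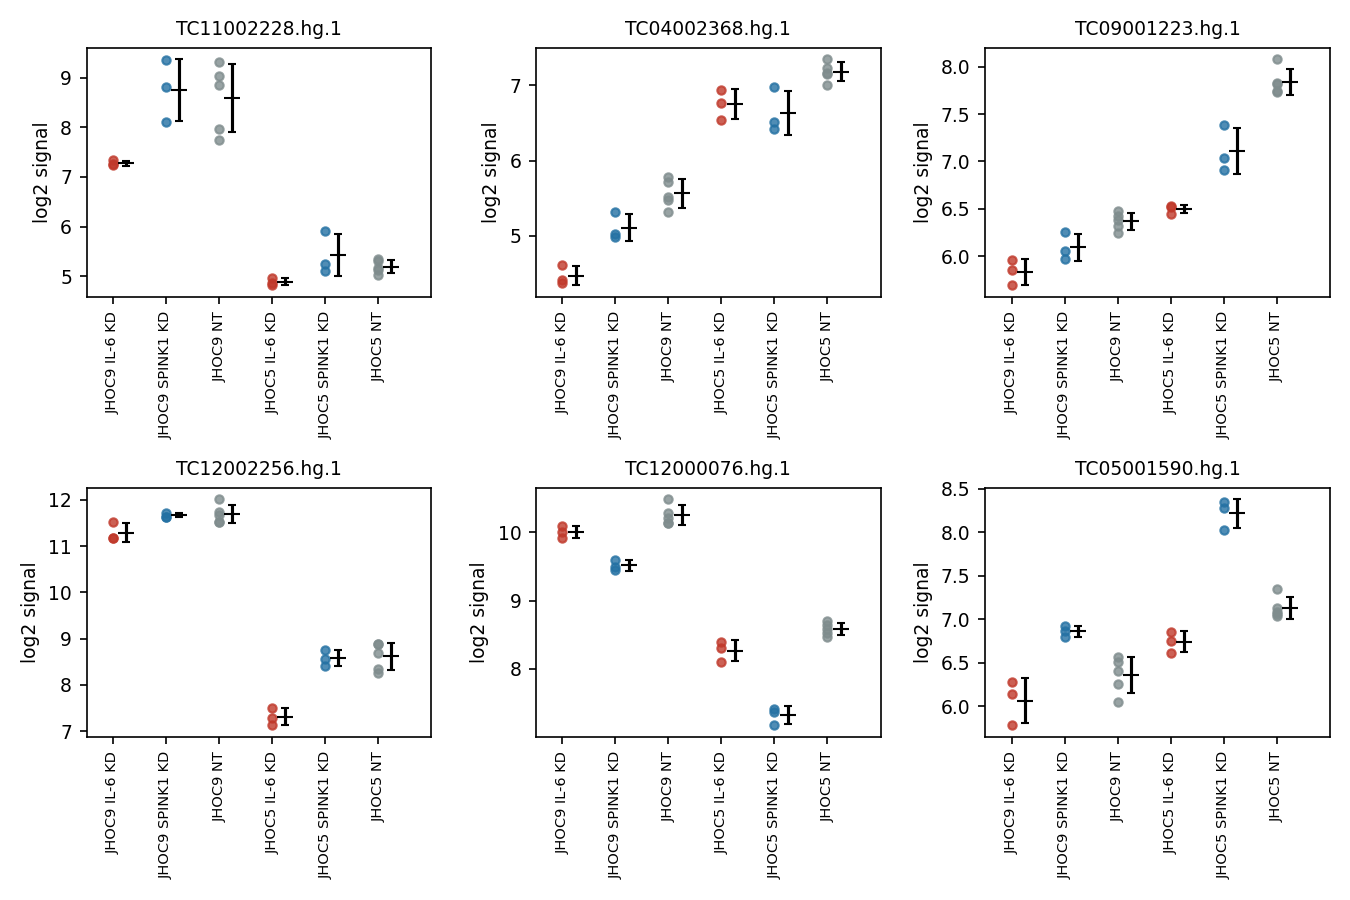
Log2 signal of 6 members on every array, by line and virus. Points are arrays, and the bar beside them is the mean with its SD (n = 3 for IL-6 KD and SPINK1 KD, n = 5 for NT); TC12000076.hg.1 lies lower with SPINK1 KD than with IL-6 KD in both lines, and TC05001590.hg.1 lies above NT with SPINK1 KD.

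The SPINK1 KD arrays, which took no part in the choice, placed the median member near the NT mean in JHOC9 and below it in JHOC5. In JHOC9 the median log2 change with SPINK1 KD against NT was -0.00535 for the members and -0.00379 for all clusters above the floor. In JHOC5 it was -0.12 for the members and 0.0564 for all clusters above the floor. The median member lay 0.0461 above, 0.0023 below and 0.0767 below the NT mean on JHOC9 SPINK1 KD replicates a, b and c. It lay 0.0402, 0.136 and 0.185 below on JHOC5 SPINK1 KD replicates c, d and e. These changes use the same NT arrays as the rule, whose choice favours clusters with high NT values, so the values are given side by side and support nothing about likeness of the knockdowns.

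In JHOC5, limma called 215 members lower and 27 higher with SPINK1 KD than with NT, which is 25.7% and 3.22% of the set. Over all clusters 3.86% were called lower and 2.68% higher in that comparison. Above the floor the shares were 7.35% and 4.63%. Members were bright, and at a mean NT level over the lines of at least 7 the background shares were higher. There 12.6% of all 10564 clusters were called lower and 6.56% higher, against 25.7% and 2.97% of 572 members. In JHOC9, 6 members were called lower and none higher, where 0.0702% of all clusters were called lower and 0.0137% higher (0.149% and 0.0237% above the floor). A replicate block was fitted for the letters, which were taken to tie SPINK1 KD to NT arrays in JHOC9. With it 10 members were called lower and 1 higher, and 3 of the 6 were among the 10. At an unadjusted p under 0.05, limma put 79 members lower and 27 higher in JHOC9. These are 9.43% and 3.22% of the members, against 3.07% and 3.31% of the clusters above the floor, so the share higher was near the background. The count of 6 became 2, 3 and 3 without JHOC9 NT replicates b, c and e, and 2, 2 and 1 without SPINK1 KD replicates a, b and c.

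Sorted by size, 379 members, or 45.2%, lay within 0.2 of NT with SPINK1 KD in both lines, against 73.6% of the 28668 other clusters above the floor. All SPINK1 KD arrays lay below all NT arrays for 70 members in JHOC9 (2.65% of the clusters above the floor did so) and for 272 in JHOC5 (10.8%). At a mean NT level of at least 7 this held for 8.92% and 31.1% of 572 members. Of all 10564 clusters at that level, 4.01% and 17.7% did so. A SPINK1 KD change of -0.2 or lower was found for 101 members in JHOC9, for 339 in JHOC5 and for 82 in both. These are 12.1%, 40.5% and 9.79% of the members, against 3.91%, 11.2% and 2.15% of the other clusters. The NT arrays shared with the rule enter these shares as well. A rise of at least 0.2 with SPINK1 KD was found for 43 members in JHOC9 and for 85 in JHOC5. These are 5.13% and 10.1% of the members, against 2.85% and 12.4% of the other clusters. The SPINK1 KD fall was at least as large as the IL-6 KD fall for 34 members in JHOC9 and for 200 in JHOC5. These are 4.06% and 23.9% of the members. Of the other clusters, 57.6% and 40.6% had a SPINK1 KD change at or below the IL-6 KD change. The rule sets the IL-6 KD falls of the members, so it favours low shares among them.

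The largest called falls with SPINK1 KD in JHOC9 were in TC12000076.hg.1 and TC19002397.hg.1. Members named here and below for their SPINK1 KD change were picked by its size. The contrast uses the NT arrays of the rule, so their p-values are a description. TC12000076.hg.1 had 9.50, 9.60 and 9.45 on the JHOC9 SPINK1 KD arrays, 10.01, 9.92 and 10.09 on the IL-6 KD arrays and 10.21, 10.29, 10.14, 10.14 and 10.49 on the NT arrays. Its SPINK1 KD change was -0.74 ± 0.09 in JHOC9 and -1.27 ± 0.09 in JHOC5 (SE, limma adjusted p of 2.68e-04 and 6.21e-09). Its IL-6 KD changes were smaller, -0.24 in JHOC9 and -0.32 in JHOC5. TC19002397.hg.1 had 5.81, 5.34 and 5.59 on the JHOC9 SPINK1 KD arrays, 5.80, 5.72 and 5.74 on the IL-6 KD arrays and 6.12, 6.19, 6.26, 6.27 and 6.10 on the NT arrays, so both knockdowns lay below all NT arrays. It had SPINK1 KD changes of -0.61 ± 0.10 in JHOC9 and -1.0 ± 0.10 in JHOC5 (limma adjusted p of 0.0117 and 5.26e-07), and its JHOC9 call was lost in 5 of 29 alternatives. Without SPINK1 KD replicate b the change was -0.49 (limma adjusted p of 0.141) and without replicate c it was -0.61 (0.0544). With the compared groups alone it was -0.61 (limma adjusted p of 0.168), with median centring -0.59 (0.0823) and with cyclic loess -0.59 (0.0915).

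In JHOC5 the largest SPINK1 KD falls among the members were in TC01006091.hg.1 and TC11001517.hg.1. TC01006091.hg.1 had 6.64, 6.74 and 6.06 on the JHOC5 SPINK1 KD arrays, 8.25, 8.08 and 8.0 on the IL-6 KD arrays and 8.71, 8.43, 8.28, 8.38 and 7.96 on the NT arrays. The SPINK1 KD arrays lay more than 1 log2 unit below the others, with a change of -1.87 ± 0.14 (SE, limma adjusted p of 1.62e-08). The IL-6 KD arrays overlapped the NT arrays in JHOC5, at a change of -0.24. TC11001517.hg.1 had 6.04, 5.54 and 5.32 on the JHOC5 SPINK1 KD arrays, 7.10, 7.10 and 7.19 on the IL-6 KD arrays and 7.73, 7.32, 7.40, 7.55 and 7.27 on the NT arrays. Here both knockdowns lay below all NT arrays, SPINK1 KD further than IL-6 KD. It changed by -1.82 ± 0.13 with SPINK1 KD (limma adjusted p of 6.87e-09) and by -0.33 with IL-6 KD in that line. In JHOC9 the SPINK1 KD changes of this pair were -0.32 and -0.40, with limma adjusted p of 0.958 and 0.561.

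Among members that rose with SPINK1 KD in JHOC5, the largest changes were in TC05001590.hg.1 and TC01004452.hg.1. TC05001590.hg.1 had 8.03, 8.27 and 8.34 on the JHOC5 SPINK1 KD arrays, 6.75, 6.86 and 6.62 on the IL-6 KD arrays and 7.04, 7.13, 7.09, 7.06 and 7.35 on the NT arrays. In JHOC5 the knockdown means lay on opposite sides of NT, without overlap of either knockdown with the NT arrays. The rule set the side of IL-6 KD and the choice by rise that of SPINK1 KD, so nothing is read from this. Its IL-6 KD change was -0.29 in JHOC9 and -0.39 in JHOC5, called in neither line (limma adjusted p of 0.368 and 0.134). The IL-6 KD and NT arrays overlapped in JHOC9. The SPINK1 KD change was 0.50 ± 0.12 in JHOC9 and 1.08 ± 0.12 in JHOC5 (SE, limma adjusted p of 0.152 and 1.94e-06). TC01004452.hg.1 changed by 0.93 ± 0.14 with SPINK1 KD in JHOC5 (limma adjusted p of 1.85e-04) and by -0.23 with IL-6 KD.

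The SPINK1 KD change differed between the lines for 64 members by limma's interaction test, and in each of the 64 the change was lower in JHOC5. Over all clusters 1.03% passed with the lower change in JHOC5, and 2.02% of those above the floor. At a mean NT level of at least 7 it was 3.84% of all 10564 clusters, against 7.87% of 572 members. With the lower change in JHOC9, 0.214% of all clusters passed, and 0.305% of those above the floor. This contrast uses the NT arrays that chose the members, so the member counts are a description. At an unadjusted p under 0.05 the change was lower in JHOC5 for 209 members, or 24.9%, against 8.04% of the clusters above the floor. It was lower in JHOC9 for 31 members, or 3.70%, against 5.23%. The count of 64 became 39 without JHOC9 SPINK1 KD replicate b, and 41 and 38 without JHOC5 SPINK1 KD replicates d and e.

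Levels in the lines could be compared on arrays that the choice of members did not use. On the SPINK1 KD arrays, limma called 263 members higher and 238 lower in JHOC9 than in JHOC5, 501 or 59.8% of the set. Over all clusters 22.7% were called in either direction on these arrays, and 35.2% of those above the floor (19.3% higher and 15.9% lower). Brighter clusters were called more often, and members were bright. At a mean NT level over the lines of at least 7, 61.7% of 572 members were called, against 51.1% of all 10564 clusters. A difference of at least 2-fold was called for 82 members higher and 66 lower in JHOC9, where 3.44% and 2.72% of the clusters above the floor were called so. On the NT arrays, which the rule did use, 237 members were higher and 352 lower in JHOC9, where 23.8% and 19.7% of the clusters above the floor were called. The median difference of the members (JHOC9 minus JHOC5) was 0.0234 on the SPINK1 KD arrays and -0.12 on the NT arrays.

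The members that differed most between lines on the SPINK1 KD arrays were TC11002228.hg.1 and TC04000588.hg.1, higher in JHOC9, and TC12002266.hg.1 and TC18000741.hg.1, lower in JHOC9. TC11002228.hg.1, whose values stand above, differed by 3.34 ± 0.32 (SE, 3 against 3 arrays, limma adjusted p of 5.24e-08). TC04000588.hg.1 had 8.69, 8.66 and 7.60 on the JHOC9 SPINK1 KD arrays and 4.94, 5.21 and 4.90 on the JHOC5 SPINK1 KD arrays, a difference of 3.30 ± 0.25 (limma adjusted p of 1.08e-09). TC12002266.hg.1 had 6.62, 6.36 and 6.13 in JHOC9 and 11.42, 11.41 and 11.55 in JHOC5, a difference of -5.09 ± 0.13 (limma adjusted p of 3.58e-17). All 3 JHOC9 arrays lay more than 4 log2 units below the JHOC5 arrays. TC18000741.hg.1 had 5.55, 5.57 and 5.09 in JHOC9 and 9.52, 9.37 and 9.59 in JHOC5, a difference of -4.09 ± 0.15 (limma adjusted p of 1.53e-14). The rule required an IL-6 KD fall of at least 0.2 in each line. The IL-6 KD change of TC12002266.hg.1 was -0.28 in JHOC9 and -0.24 in JHOC5 (limma adjusted p of 0.390 and 0.564). Its IL-6 KD arrays overlapped the NT arrays in both lines. The IL-6 KD change of TC18000741.hg.1 was -0.45 in JHOC9 and -1.20 in JHOC5, and its IL-6 KD arrays lay below all NT arrays in both lines. A bulk array does not tell fewer cells that hold a transcript from less of it per cell.

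Members were brighter than other clusters above the floor. The median NT level was 7.45 in JHOC9 and 7.59 in JHOC5 for the members, against 6.47 and 6.42 for the other clusters. The share of clusters in the set was 0.707% at mean NT levels from 5 to 6, 2.17% from 6 to 7, 5.02% from 7 to 8, 6.37% from 8 to 9 and 7.04% from 9 to 10. At 10 and above it was 2.57%, or 21 of 817 clusters. Falls of at least 0.2 in single lines followed a like course, with 2.45% in JHOC9 and 4.03% in JHOC5 from 5 to 6, and 20.1% in JHOC9 and 13.1% in JHOC5 from 9 to 10. The band medians of the members' falls lay between -0.30 and -0.27 in JHOC9 and between -0.36 and -0.30 in JHOC5. The rule cuts the members' changes at -0.2, which holds these medians near the cutoff, so nothing is read from their likeness.

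**Figure D4:**
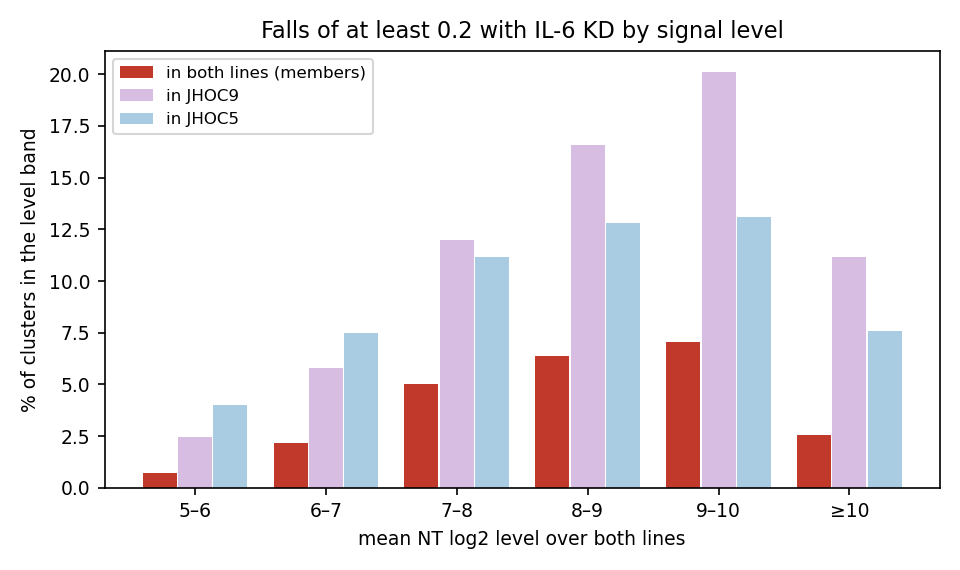
Share of clusters (vertical axis, percent) that fell by at least 0.2 with IL-6 KD in both lines, in JHOC9 or in JHOC5, by mean NT log2 level over both lines (horizontal axis). The share in both lines is 0.707% in the dimmest band, 7.04% from 9 to 10 and 2.57% at 10 and above.

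The brightest member was TC14002169.hg.1. It had 11.90, 12.02 and 11.55 on the JHOC9 IL-6 KD arrays, 11.99, 12.07 and 11.95 on the SPINK1 KD arrays and 12.06, 12.07, 12.15, 11.98 and 11.86 on the NT arrays. In JHOC5 it had 11.62, 11.48 and 11.52 on the IL-6 KD arrays, 11.73, 11.73 and 11.71 on the SPINK1 KD arrays and 11.96, 11.85, 11.90, 11.93 and 11.82 on the NT arrays. The groups separated in JHOC5, with the SPINK1 KD arrays between the others, and overlapped in JHOC9. Its IL-6 KD change was -0.20 ± 0.08 in JHOC9 and -0.35 ± 0.08 in JHOC5 (SE, 3 against 5 arrays).

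The spread of the members between arrays of a group can be read from the SPINK1 KD arrays, which the rule did not use. The median SD of a member was 0.106 on the JHOC9 SPINK1 KD arrays and 0.118 on the JHOC5 SPINK1 KD arrays, against 0.115 and 0.0921 for the other clusters above the floor. On the IL-6 KD arrays it was 0.168 in JHOC9 and 0.148 in JHOC5 for the members, against 0.122 and 0.136 for the other clusters.

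The chromosome code, the pair of characters after TC in an ID, follows the array maker's naming. Members lay on 23 of the 24 codes for chromosomes 1 to 22, X and Y. Code 1 held the most members, 96 of 2986 clusters above the floor, or 3.22%. The share was highest for code 4, with 53 of 939 clusters or 5.64%, followed by X with 46 of 949 or 4.85% and code 12 with 61 of 1427 or 4.27%. It was lowest for code 21, where none of 394 clusters was a member, followed by code 22 with 8 of 625 or 1.28% and code 19 with 25 of 1839 or 1.36%. None of the 22 clusters of code M was a member.

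Codes with high and low shares stood in a like order among the brighter clusters. At mean NT levels of at least 7, where 5.41% of all clusters were members, the share was 9.81% for X, 8.94% for code 4 and 8.17% for code 12, against 2.18% for code 19, 2.93% for code 22 and 0 of 95 clusters for code 21. This split by level was chosen after seeing the data. Falls of at least 0.2 in single lines differed by code as well. On code 4, 10.4% of the clusters above the floor fell in JHOC9 and 14.9% in JHOC5. On code 21 these shares were 4.06% and 2.54%, and on code 19 they were 6.04% and 5.44%. Codes were described by counts and were not tested.

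**Figure D5:**
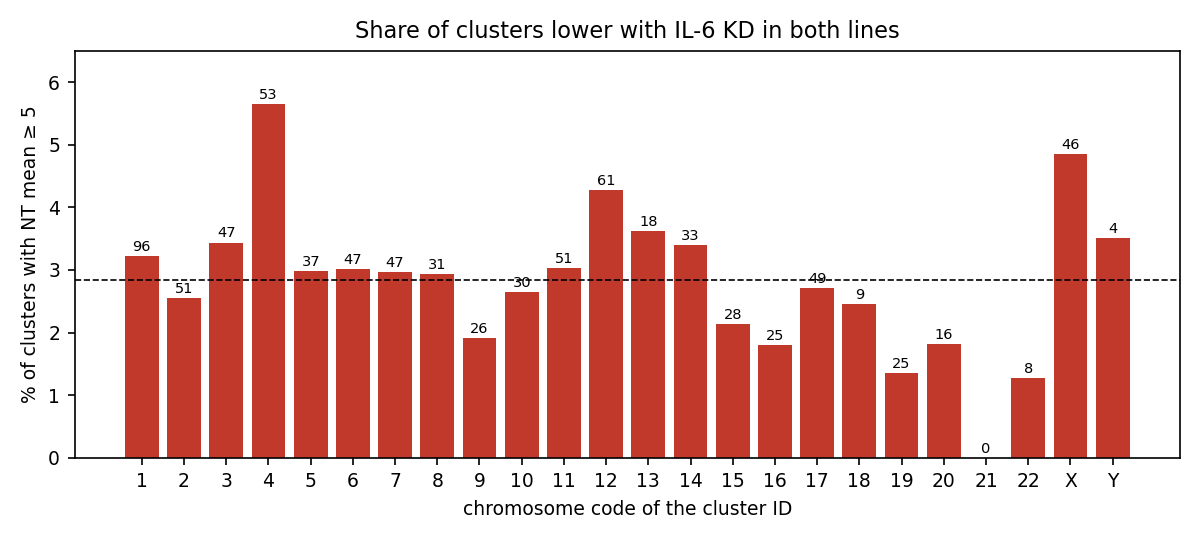
Share of clusters with NT means of at least 5 in both lines that belong to the set (vertical axis, percent), by chromosome code of the cluster ID (horizontal axis). Numbers above the bars count members, and the dashed line is the share over all such clusters, 2.84%; code 4 and X stand highest, and code 21 holds no member.

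Medians over all clusters of a code also differed. The median IL-6 KD change over the clusters of a code above the floor was 0.00298 in JHOC9 and -0.0127 in JHOC5 for code 4, against 0.0322 and 0.0530 for code 21 and 0.0305 and 0.0497 for code 19. With SPINK1 KD in JHOC5 the same medians were 0.0206 for code 4, 0.0703 for code 21 and 0.0807 for code 19. The members' own changes are held at or below -0.2 by the rule. On code 4 their median was -0.27 in JHOC9 and -0.43 in JHOC5, on X -0.31 and -0.42, and on code 1 -0.29 and -0.37. On code 12 the medians were -0.29 in JHOC9 and -0.34 in JHOC5. They were -0.29 and -0.33 on code 11, and -0.25 and -0.34 on code 7. The JHOC5 values of codes 12, 11 and 7 lie near the median of all members, -0.35. The smallest JHOC5 falls by code were those of code 19, at -0.27, code 15, at -0.28, and code 16, at -0.29. The median SPINK1 KD change of the members in JHOC5 was -0.19 on code 4, -0.13 on X, -0.17 on code 1 and -0.29 on code 6, against 0.0102 on code 11.

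Few members repeated each other. Values equal on all arrays within 1e-05 grouped 11 members into 4 sets, which leaves 831 distinct members. Another member with the next ID number on the same code was found for 37 members.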

How the data were processed

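Each sample gave 200 ng of total RNA to a Human Transcriptome Array 2.0, per the labels. The submitters' processing notes name RMA (background correction, normalization between arrays and probe summary) and no version. Annotation and build were not given in the sources used here. Linear intensity values, deposited as raw per the file headers, differ little in distribution between arrays, so they are not scanner values, and an overall shift in RNA content would not show. The deposited log2 values equal the log2 intensity minus each cluster's median over 22 arrays, within 2.06e-06. 

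Members were found from log2 of the linear columns. All arrays entered 1 limma 3.58.1 model (R 4.3.3) with 6 group means. Two-sided moderated tests from eBayes were adjusted by Benjamini-Hochberg over all 65526 clusters, with a threshold of 0.05. SDs are over arrays and SEs are moderated. Figures used matplotlib 3.10.9 under Python 3.11.15. The fit was tested on simulated data with independent noise and changes of 1 log2 unit, larger than those of most members. That test does not cover smaller falls or noise shared between arrays. The members, tests and named clusters were chosen with earlier results of these data known. Named were the members with the 2 largest IL-6 KD falls per line, the 2 largest called SPINK1 KD falls and rises per line, the 2 highest and 2 lowest between lines on SPINK1 KD arrays, and the brightest. Preset gene lists could not be used, since IDs carry no names.

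Replicate letters are shared between groups. Deviations of same-lettered SPINK1 KD and NT arrays in JHOC9 correlated at 0.432, 0.322 and 0.203, all over 0.1, so the letters were taken to pair these arrays. That pairing is uncertain, since SPINK1 KD replicate c correlated more with NT replicate d, at 0.435. Single same-lettered pairs of IL-6 KD and NT arrays were as strong, at 0.524 for replicate a in JHOC5 and 0.483 for replicate e in JHOC9. The reported values come from the model without a block, and the count with the block is printed beside them. Elsewhere at least 1 pair per comparison fell short of 0.1. Alternatives were the letter as a block, compared groups alone, median centring, cyclic loess, a filter on dim clusters, eBayes with trend and robust, array weights, and each array left out.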

Additional observations from a re-analysis of the deposited data

Results flagged for a closer look

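The SPINK1 KD change differed between the lines for 64 members by limma's interaction test, with the lower change in JHOC5 in all 64. Of the clusters above the floor, 2.02% passed in that direction and 0.305% in the other. At a mean NT level of at least 7, 3.84% of all clusters passed in that direction, against 7.87% of the members. The NT arrays that chose the members enter this contrast. On 3 clusters a single NT array stood apart from the other 4 of its group. TC09001223.hg.1 was 8.08 on JHOC5 NT replicate d, TC05001590.hg.1 was 7.35 on JHOC5 NT replicate e, and TC04000588.hg.1 was 4.81 on JHOC5 NT replicate a. These were 3 of 30 groups examined, and over all members 81 of 1676 NT groups, or 4.83%, held such an array, where chance gives about 1 in 20.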

How the results depend on the processing

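The number of clusters that met the rule was 277 with a required fall of 0.3, 1284 with arrays centred on their median and 525 without JHOC9 IL-6 KD replicate b and JHOC5 IL-6 KD replicate a together, an alternative chosen after seeing the data. With 1 array left out at a time it was 613 to 1072. Members called lower with IL-6 KD numbered 2 in JHOC9 with the compared groups alone in the fit, which has fewer arrays to estimate the spread. With 1 array left out they numbered 21 to 148 in JHOC9 and 181 to 343 in JHOC5. With SPINK1 KD in JHOC9, members called lower numbered 1 with the compared groups alone, 1 with median centring, 2 with cyclic loess and 52 with array weights, and those called higher numbered 1 with the filter on dim clusters and 27 with array weights. With 1 array left out they were 1 to 7 lower and 0 to 1 higher. Array weights gave JHOC9 SPINK1 KD replicate b a weight of 6.46, so that array dominates there. In JHOC5 those called higher with SPINK1 KD numbered 15 with median centring and 49 with array weights. With 1 array left out they were 166 to 225 lower and 18 to 31 higher. The interaction was called for 184 members with array weights, 20 of them with the lower change in JHOC9, and for 38 to 81 with 1 array left out. Members called between lines numbered 444 to 510 on SPINK1 KD arrays and 567 to 602 on NT arrays with 1 array left out. The cause of these shifts was not tested. The average of the array medians of the members on the JHOC9 SPINK1 KD arrays was 0.0067 with median centring, against -0.011 without centring.

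With the replicate block, 10 members were called lower and 1 higher with SPINK1 KD in JHOC9, the comparison that the letters were taken to pair. The block gave 92 members for the interaction, 5 of them with the lower change in JHOC9. It gave 471 for the lines on SPINK1 KD arrays and 607 on NT arrays, both with letters shared between lines. With IL-6 KD it called 109 members lower in JHOC9, among them 66 of the 102 called without it. In JHOC5 it called 355, among them 287 of the 329. No named cluster changed sign in any alternative. The number of arrays per group and the lack of gene names limit what can be read from single members.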
